A study of Mus musculus with 4 samples.

Results

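The RNAs described here are 9 structural noncoding RNA genes of the mouse whose fragments were listed among small RNAs bound to MILI (Piwil2), a PIWI protein of male germ cells. They are Gm42418 and CT010467.1 on opposite strands of a ribosomal RNA locus, Rn7sk, Rpph1, Rmrp, Rnu11, Rny3, Snord118 and the mitochondrial mt-Rnr2. A listed sequence counted as a member's when it matched a GENCODE M21 transcript of that gene exactly and in sense. This gave 2146 of the 4906138 distinct sequences in the list (0.0437%), from 9 of 55341 annotated gene names, and 0 of the 2146 matched more than 1 of the 9 genes in sense. The genes were chosen by the number of their sequences in this same list, so those numbers are a description and not a test.

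MILI-bound RNA had been recovered from testes of C57BL/6 mice at 14 dpp (days post partum) by immunoprecipitation, with gel elution of RNAs of about 28 to 30 nt. The series had 4 libraries, 2 from Tdrd9+/- and 2 from Tdrd9-/- testes, and was designed to compare MILI-associated RNAs with and without TDRD9, a germline RNA helicase of the piRNA pathway. The heterozygous group carries the Tdrd9 mutant allele too, and the labels do not say how many animals gave each library. The list pools the 4 libraries, with no read counts and no library column, so the depth is unknown, no value below compares the genotypes, and an abundant fragment counts as much as a rare fragment. Intervals are exact Clopper-Pearson 95% intervals and cover counting error only. Sequences of a single RNA overlap and are not independent of each other, so these intervals are narrower than the true uncertainty.

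PIWI proteins bind piRNAs, small RNAs that mostly begin with U and guide the silencing of transposons, and MILI is known for piRNAs cut from long precursor transcripts and messenger RNAs. Structural RNAs work as folded molecules in ribonucleoproteins instead. Ribosomal RNA builds the ribosome, Rn7sk (7SK) holds the elongation factor P-TEFb inactive, Rpph1 is the RNA of RNase P, and Rmrp that of RNase MRP. Rnu11 (U11) recognises the 5′ splice site of minor introns, Rny3 is a Y RNA bound by the Ro protein, Snord118 (U8) is a C/D box small nucleolar RNA needed for ribosomal RNA maturation, and mt-Rnr2 is the large ribosomal RNA of the mitochondrion. These RNAs are abundant in most cells, and their fragments are often met in small RNA libraries.

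For each gene, the 5′ end at which the most sequences were listed is shown by the longest sequence there, so that its first base can be compared with the 5′ U of piRNAs. The letters are those of the list, with T for U, and the capital marks the first base.
Gm42418: Aggagtggagcctgcggcttaatttgactc
CT010467.1: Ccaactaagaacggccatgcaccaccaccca
Rn7sk: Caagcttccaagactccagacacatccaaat
Rpph1: Tacgcttgggcagactgggcaggagaagcc
Rmrp: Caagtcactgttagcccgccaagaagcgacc
Rnu11: Ttgctgtgcgtgcggaatcgacatcaag
Rny3: Ggttggtccgagagtagtggtgtttacaac
Snord118: Tagaaaatgatgattggagcttgcatgatc
mt-Rnr2: Aaaaggaactcggcaaacaagaacccc
Of these fullest ends, those of Rpph1, Rnu11 and Snord118 began with U, those of CT010467.1, Rn7sk and Rmrp with C, those of Gm42418 and mt-Rnr2 with A, and that of Rny3 with G. By the matching rule, each sequence lay inside the annotated RNA of its gene. The number of listed sequences that shared the end went from 10 at Gm42418, with lengths from 20 to 30 nt, through 9 at Rny3 (22 to 30 nt) and 8 at Rn7sk (24 to 31 nt), to 3 at mt-Rnr2 (23 to 27 nt). The ends of CT010467.1 and Snord118 had 7 sequences each, that of Rmrp 6, and those of Rpph1 and Rnu11 5 each.

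Most of the member sequences came from the ribosomal RNA locus. Gm42418 had 1136 sequences at 396 distinct 5′ ends and CT010467.1 had 392 at 183, which together made 71.2% (69.2–73.1%) of the 2146. Among the other 7 genes Rmrp had the most, 176 sequences at 78 ends, followed by Rn7sk with 116 at 40 and Rpph1 with 85 at 47. Rnu11 had 71 sequences at 34 ends, Rny3 63 at 21, Snord118 57 at 20 and mt-Rnr2 50 at 39. Per kb of the longest transcript, counting only ends on it, the order was different: Rmrp had 278 distinct ends per kb, Rnu11 254, Gm42418 216, Rny3 206, Snord118 148, Rpph1 147, Rn7sk 121, CT010467.1 70.3 and mt-Rnr2 24.7. On this scale the short RNAs Rmrp and Rnu11 were more densely covered with 5′ ends than the ribosomal gene with the most sequences. The sparsest was mt-Rnr2. The scale takes the whole transcript, including sequence shared with genes elsewhere. Of the 27-nt windows of Rn7sk, 74.8% were shared in this way, and 0 of its listed 27-nt sequences lay in them. In Rmrp and Gm42418 the share was 0%. The order therefore depends on how much sequence is shared.

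**Figure D1:**
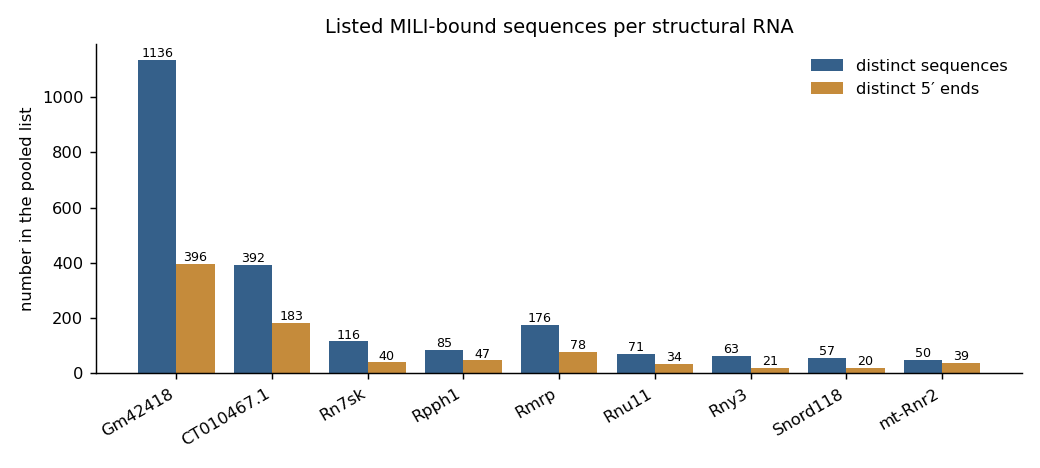
Number of distinct listed sequences (blue) and of distinct 5′ ends (orange) for each of the 9 genes in the pooled list of 4 libraries. Gm42418, at 1136 sequences, exceeded the other 8 genes, and only mt-Rnr2 had nearly as many ends (39) as sequences (50).

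A 5′ U was less frequent in the member sequences than in the list as a whole. Of the 2146 sequences, 30.4% (28.4–32.4%) began with U, against 75.4% of the whole list. A was the first base of 27.03%, C of 24.4% and G of 18.2%. For each of the 9 genes the upper bound of its interval lay below the share of the whole list, whether sequences or distinct ends were counted (72.01% of the ends of the list began with U, and Rny3 came nearest by ends, with an upper bound of 70.2%). Rnu11 at 49.3% (37.2–61.4%) and Rny3 at 49.2% (36.4–62.1%) had the highest shares, and mt-Rnr2 at 16.0% (7.17–29.1%) the lowest. Rmrp had 38.6% (31.4–46.3%), CT010467.1 30.9%, Rpph1 30.6%, Rn7sk 30.2%, Gm42418 27.6% and Snord118 26.3%.

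The U content of the longest transcripts gives a rough scale for these shares, since the sequences came from parts of them. Rmrp and Rpph1 hold little U, 16.7% and 16.0% of their nucleotides, whereas Rny3 holds 35.3%, Snord118 31.1%, mt-Rnr2 26.4% and Rnu11 26.1%. Gm42418 has 22.1%, Rn7sk 22.4% and CT010467.1 22.7%. The lower bound of the 5′ U share lay above the transcript's U content in 6 of 9 genes, the exceptions being Rn7sk, Snord118 and mt-Rnr2. Counted by distinct 5′ ends this remained so in 2 genes, CT010467.1 (31.1%, 24.5–38.4%) and Rmrp (30.8%, 20.8–42.2%). Within the same sequences, U made up 18.6% of the bases at positions 11 to 20 over all members and 20.7% in the whole list. Per gene this went from 12.8% in CT010467.1 to 29.3% in Snord118. The 5′ U share was above it in 8 of 9 genes, the exception being Snord118.

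**Figure D2:**
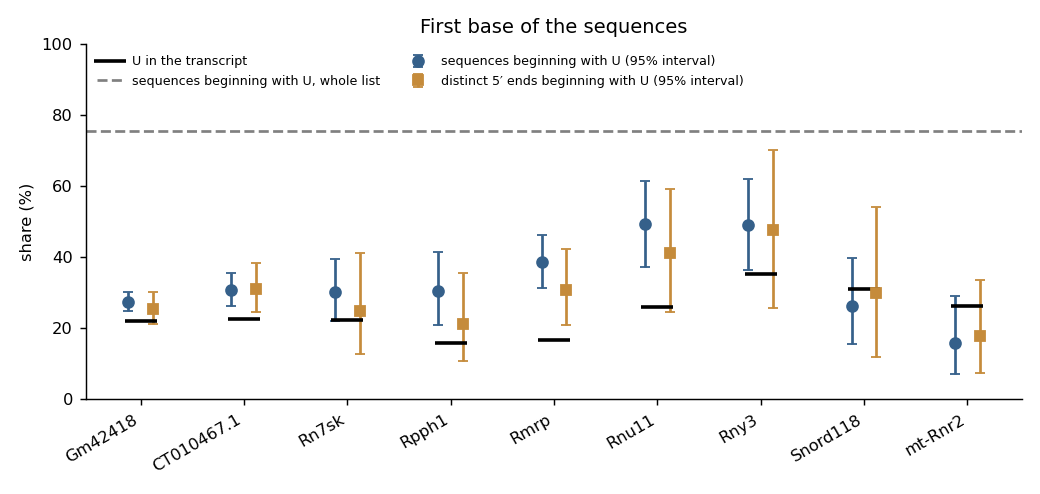
Share of sequences (circles) and of distinct 5′ ends (squares) that began with U for each gene, with exact 95% intervals, beside the U content of its longest transcript (black bars) and the share in the whole list (dashed line, 75.4%). All 9 genes lie below the dashed line, and mt-Rnr2, at 16.0%, and Snord118, at 26.3%, lie below their own U content.

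In the whole list, 5′ ends with 4 or more sequences began with U in 89.2% of cases. Such ends made up 4.04% of the ends of the list and 24.7% of those of the members (212 of 858). Of these 212 ends, 74 began with U (34.9%, 28.5–41.7%). The share was 29.6% (22.6–37.3%) in the ribosomal locus and 50.9% (36.8–64.9%) in the other genes, where 27 of 53 such ends began with U. Over all ends, whatever their number of sequences, the share was 27.3% (23.7–31.1%) in the ribosomal locus. It was 29.0% (23.8–34.7%) in the other genes and 72.01% in the list. Of the ends with 4 or more sequences, U began 8 of 13 in Rmrp and 6 of 14 in Rn7sk. It began 4 of 7 in Rpph1, 4 of 7 in Rny3, 4 of 6 in Rnu11 and 1 of 6 in Snord118. No such end was found in mt-Rnr2. Ends used by several sequences were therefore also less often U than in the list, with few ends per gene.

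Member sequences were spread more widely in length than the list. Their mean was 27.05 nt (SD 1.83 nt over sequences, 18 to 36 nt), against 27.1 nt (SD 1.31 nt) for the whole list, and 62.3% (60.2–64.4%) were 26 to 28 nt long, against 77.0%. Sequences under 24 nt made up 3.40% (2.68–4.26%) of the members' and 0.550% of the list. Of these 73 short sequences, 52 came from Gm42418, 6 from CT010467.1, 5 from Rny3, 3 each from Rnu11 and Snord118, 2 from Rn7sk and 1 each from Rmrp and mt-Rnr2. Rpph1, with 74.1% (63.5–83.0%) of its sequences at 26 to 28 nt, had none under 24 nt, and Rny3 had the lowest share at 26 to 28 nt, 50.8% (37.9–63.6%). Rnu11 had the shortest mean, 26.2 nt (SD 1.29 nt), and Rmrp the longest, 27.6 nt (SD 1.51 nt). On the long side, 29 nt held 14.01% of ribosomal locus sequences and 13.1% of those of the 7 other genes, against 11.8% of the list, and 30 nt held 5.76% and 6.47%, against 3.06%. Gel elution preceded sequencing, so the lengths describe the eluted RNA.

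**Figure D3:**
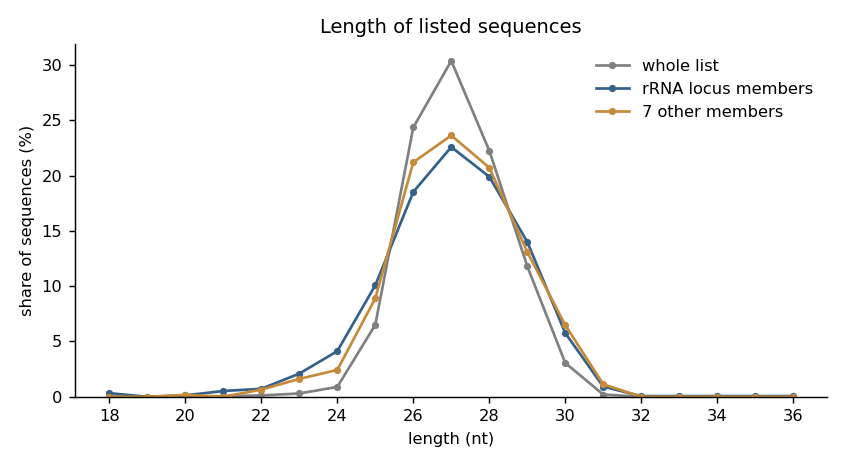
Share of sequences at each length from 18 to 36 nt for the whole list (grey), the ribosomal locus members (blue) and the 7 other members (orange). The 3 curves peak at 27 nt, and the member curves are lower there and higher on both sides, at 24 and 25 nt and at 29 and 30 nt.

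In the ribosomal locus, the 3′ ends of the fragments varied little more than their 5′ ends. In the whole list there were 1.42 sequences per distinct 5′ end and 1.19 per distinct 3′ end. For the members the values were 2.50 and 2.30, with 858 distinct 5′ ends and 934 distinct 3′ ends. The ribosomal locus members had 2.64 and 2.53 (579 and 603 ends), and the 7 other members 2.22 and 1.87 (279 and 331 ends). Gm42418 had 2.87 sequences per 5′ end and 2.82 per 3′ end, so its sequences started at nearly as many places as they stopped (396 and 403). mt-Rnr2 had 1.28 of each. Rny3 stood at the other side, with 3 sequences per 5′ end and 1.97 per 3′ end (21 and 32 ends), as did Rnu11 with 2.09 and 1.48. Each end was counted once whatever its abundance, and a densely sampled RNA gains shared ends of both kinds.

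The ribosomal locus gave sequences from both strands, mostly from the plus strand. Its member sequences span chromosome 17 from 39983411 to 39985692 (mm9, 2282 nt), with Gm42418 on the plus strand and CT010467.1 on the minus strand. The RefSeq table of the GRCm38 assembly gives Gm42418 as a synonym of Rn18s-rs5, a pseudogene of 18S ribosomal RNA, which is the RNA of the small ribosomal subunit. By this synonym the plus strand reads as 18S ribosomal RNA and the minus strand as its complement. The annotation, however, gives the gene type rRNA to CT010467.1 and lincRNA to Gm42418. Neither strand was compared with an 18S sequence. The interval also runs 546 nt beyond the right end of the longest CT010467.1 transcript (1849 nt), described below. Inside the interval 1795 sequences were listed, 1373 on the plus strand at 491 ends and 422 on the minus strand at 197 ends, so 76.5% (74.5–78.4%) were plus. Copies of 18S genes outside the listed position could not be examined, and a sequence from an identical copy cannot be told apart from a sequence of this locus.

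The annotation did not cover all of the plus-strand sequences. Gm42418 begins at nucleotide 493 of the interval, and 237 plus-strand sequences to its left matched no member in sense. All 237 were antisense to CT010467.1, as their position implies. Of the 422 minus-strand sequences, 392 were sense to CT010467.1 and 30 to no member. Each share over all members thus includes these 392 minus-strand sequences and leaves out the 237 plus-strand ones. Of the CT010467.1 sequences, 167 also matched AY036118, a lincRNA annotated on the same strand of the locus.

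The strands were used unequally along the locus. The longest CT010467.1 transcript spans 1849 nt, as many as the RefSeq entry for Rn18s-rs5, and in mm9 it lies at 39983298 to 39985146. Within it 1309 sequences were plus and 303 minus (81.2% plus, 79.2–83.1%). Wholly in the 546 nt to its right, which the interval also includes, 37 were plus and 119 minus (23.7% plus, 17.3–31.2%), the opposite order. A further 28 plus-strand and 0 minus-strand sequences crossed its right end. Counted with those to the right they gave 65 plus and 119 minus (35.3% plus, 28.4–42.7%). Plus-strand sequences were piled up in separate blocks. The fullest 50-nt bin, from nucleotide 1251 to 1300 of the interval, held 161 plus-strand 5′ ends of sequences and 33 minus-strand ones, and 13 of 46 bins held no plus-strand sequence. On the minus strand the fullest bin was 1601 to 1650, with 71 sequences beside 21 on the plus strand, and 15 of 46 bins held none. In 11 of 46 bins the minus strand had more sequences than the plus strand. The 5 fullest bins of each strand held 41.9% of plus-strand and 56.2% of minus-strand sequences.

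**Figure D4:**
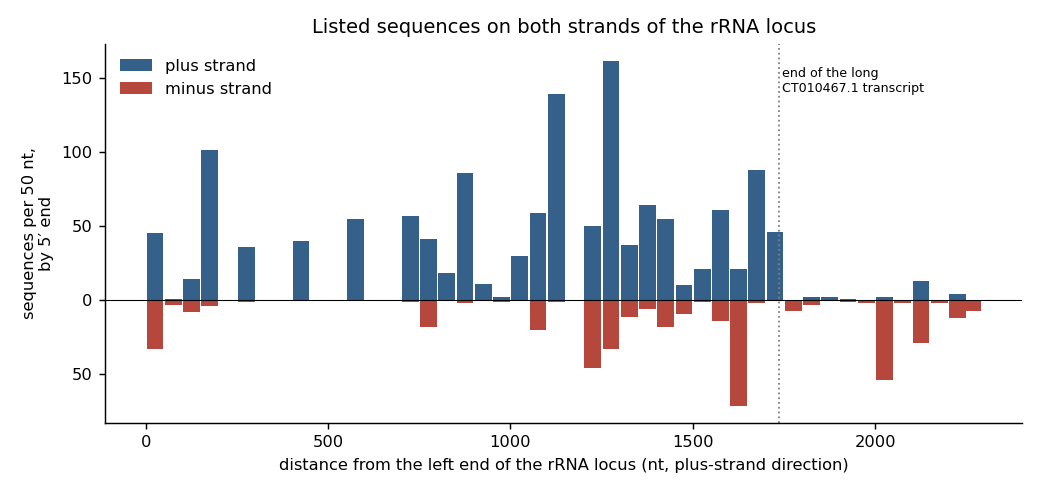
Sequences per 50 nt of the ribosomal locus, by the position of their 5′ end, on the plus strand (blue, upward) and the minus strand (red, downward), against distance from the left end of the interval. The dotted line marks the right end of the longest CT010467.1 transcript: plus-strand sequences are mostly to its left, and minus-strand sequences continue to its right (119 against 37 that lie wholly beyond it).

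Where the minus strand was covered, the plus strand usually was too. Plus-strand sequences covered 1403 of the 2282 nt (61.5%) and minus-strand sequences 1138 nt (49.9%). They shared 843 nt, which was 74.1% of the minus-covered and 60.1% of the plus-covered nucleotides. Neither strand was covered at 584 nt.

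Opposite-strand ends of the locus showed no peak at the 10-nt overlap that slicing by PIWI proteins leaves. Plus and minus 5′ ends formed 67 pairs at 10 nt. The remaining overlaps between 1 and 20 nt had 61.3 pairs on average, from 48 to 71, so that the ratio was 1.09. Of those 19 overlaps, 8 had more pairs than 10 nt. Among overlaps up to 40 nt the fullest was 27 nt, with 86 pairs, which is also the commonest length of the sequences. The 10-nt pair with the most sequences at its ends is shown, with the shared 10 nt in capitals. It was chosen after the values were seen.
plus strand: GATGTCCGGGgctgcacgcgcgctacact
minus strand: CCCGGACATCtaagggcatcacagacctgt
The plus-strand end had 7 sequences, the longest at chr17:39984811-39984839, and the minus-strand end had 6, the longest at chr17:39984791-39984820. Neither began with U.

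Base 10 was more often A on the minus strand of the locus. A stood at position 10 in 38.4% (33.7–43.2%) of minus-strand sequences, against 29.1% on average at positions 11 to 20, and position 10 had the highest share of A among positions 2 to 20. Counted by distinct ends the share was 36.5% (29.8–43.7%). On the plus strand A stood at position 10 in 22.8% (20.6–25.1%) of sequences, against 22.4% at positions 11 to 20, and 9 of positions 2 to 20 had more. U was the first base of 29.4% (25.1–34.0%) of minus-strand and 30.7% (28.3–33.3%) of plus-strand sequences. Over all members, A at position 10 was at 27.1% (25.2–29.1%), against 31.7% in the whole list.

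Within Gm42418 and CT010467.1, the fullest 5′ ends lay at chr17:39984524-39984553 (plus strand, transcript nucleotides 622 to 651) and chr17:39984623-39984653 (minus strand, nucleotides 494 to 524 of the longest transcript). Sequences of Gm42418 covered 1121 of its 1831 nt (61.2%). The first covered nucleotide was 73 and the last 1779. Its longest uncovered stretch was 108 nt, from 124 to 231. CT010467.1 was covered over 771 of 1849 nt (41.7%), with an uncovered stretch of 424 nt.

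The nuclear-encoded small RNAs differed in how much of their length was represented. Rnu11 was covered over all of its 134 nt, Rmrp over 276 of 281 nt, Rny3 over 98 of 102 nt and Rpph1 over 277 of 319 nt. Snord118 was covered over 80 of 135 nt and Rn7sk over 93 of 331 nt. All 568 sequences of these 6 genes lay at a single locus per gene, on chromosome 4 for Rmrp (43505655–43505935, minus strand) and Rnu11 (131825995–131826128, minus strand), 14 for Rpph1 (51427124–51427442, minus strand), 9 for Rn7sk (78023110–78023440, minus strand), 6 for Rny3 (47731623–47731724, plus strand) and 11 for Snord118 (68886929–68887063, plus strand). These mm9 intervals were placed by the members' own matches.

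**Figure D5:**
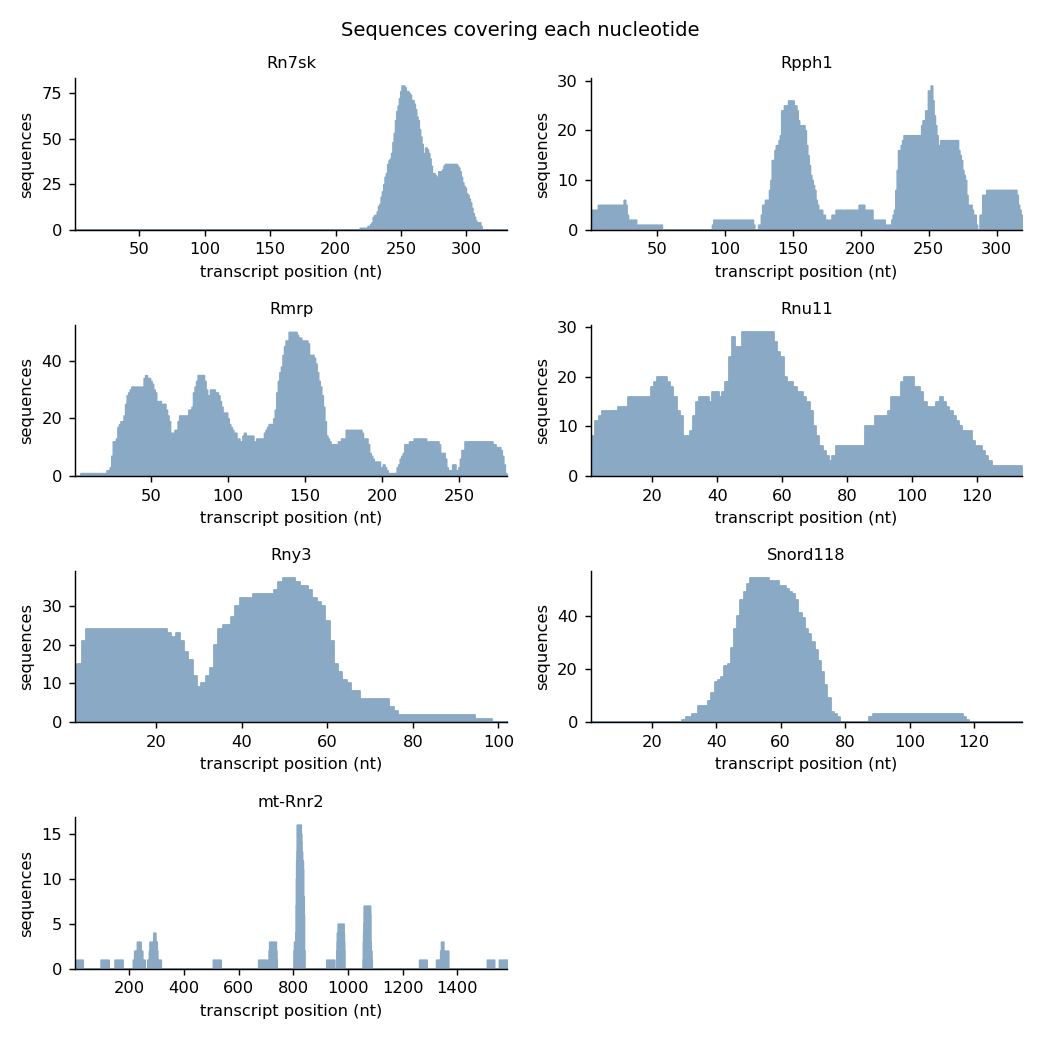
Number of distinct sequences covering each nucleotide of the longest transcript of the 7 members outside the ribosomal locus, by position from the transcript's 5′ end. Snord118 is covered in a single main block, Rn7sk and Rny3 in 2 adjoining blocks each, and Rmrp, Rpph1 and Rnu11 along most of their length.

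Rn7sk sequences came from the 3′ part of the RNA. They covered nucleotides 219 to 311 and left the first 218 nt without a sequence inside the transcript. Of the 116 sequences, 79 (68.1%, 58.8–76.4%) started in the 30 nt from 222 to 251. The longest stretch of Rn7sk whose 27-nt windows occurred in no other annotated gene ran from nucleotide 221 to 323, nearly the same stretch. Of its 305 windows of 27 nt, 228 (74.8%) occurred in other genes, and 0 of its 27 listed sequences of 27 nt lay in such a window. The fullest end, at nucleotide 269 (chr9:78023142-78023172), lay in this stretch too.

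Other genes with near-identical copies in the annotation also had no sequence of 27 nt in a shared window. Snord118, Rnu11, Rpph1 and mt-Rnr2, however, had sequences outside their longest unshared stretch as well. Snord118 shared 38 of 109 windows with other genes, and its longest stretch of its own, nucleotides 1 to 77, held the block from which 54 of its 57 sequences (94.7%, 85.4–98.9%) started, at 22 to 51. The other 3 started between 81 and 100. Rnu11 shared 23 of 108 windows, mt-Rnr2 53 of 1556, and Rpph1 31 of 293 with genes other than Ccnb1ip1. Over the 7 genes outside the ribosomal locus, 373 of 2702 windows occurred in genes elsewhere, and 0 of 146 listed sequences of 27 nt lay in them. The uncovered part of Rn7sk was mostly shared sequence, so sequences from there that were left off the list cannot be told apart from sequences that were not there. The longest uncovered stretch of Snord118, nucleotides 1 to 29, lay within its own stretch.

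Rmrp, the RNA of RNase MRP, had sequences along nearly all of its length, with several blocks. Of its 176 sequences, 31 started from nucleotide 21 to 40, 24 from 61 to 80, and 47 from 121 to 140. Its fullest end was at nucleotide 132 (chr4:43505774-43505804). No sequence started at its first nucleotide, but 3 more on the same strand crossed the annotated 5′ border by up to 6 nt, and 6 crossed the 3′ border. On the opposite strand 3 sequences lay inside Rmrp. Of the 176 Rmrp sequences, 96 were antisense to a transcript of another annotated gene. None of the other nuclear-encoded small RNAs had an opposite-strand sequence inside its borders.

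Rpph1, the RNase P RNA, had 37 of 85 sequences starting from nucleotide 221 to 260 and 27 from 121 to 160. The fullest end, at nucleotide 142 (chr14:51427272-51427301), began with U. Of the 85 sequences, 2 started at the first nucleotide and 2 ended at the last, and 13 more crossed the annotated 5′ border by up to 14 nt. Its sequences were shared with Ccnb1ip1 in 53 of 85 cases, since a transcript of that protein-coding gene overlaps Rpph1 on the same strand. A source in the longer transcript cannot be told apart for these.

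Rnu11, the U11 RNA of the minor spliceosome, was represented from its first to its last nucleotide. Of its 71 sequences, 18 started in the first 20 nt, 4 of them at nucleotide 1, and 2 ended at the last nucleotide. The fullest end, at nucleotide 44 (chr4:131826058-131826085), began with U. No sequence crossed either border. All 71 were antisense to the lincRNA Gm28872, which is annotated across the same place on the opposite strand, and the strand of the sequences was that of Rnu11.

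Rny3, the Y3 RNA, had a block at its very 5′ end. Of its 63 sequences, 24 started in the first 20 nt, and 21 of these started at nucleotides 1 to 3. At nucleotide 1 there was 1 sequence of each length from 22 to 30 nt, which is the ladder of 9 sequences behind the fullest end (chr6:47731623-47731652). Its shortest and longest steps are shown to let the 3′ ends be compared, with the first base in capitals.
Rny3, 22 nt: Ggttggtccgagagtagtggtg
Rny3, 30 nt: Ggttggtccgagagtagtggtgtttacaac
A further 32 sequences started from nucleotide 21 to 40, and 7 started after that. Beyond the 63, 5 sequences on the same strand crossed the 5′ border by up to 3 nt, and none crossed the 3′ border. In the 500 nt on each side of Rny3, no sequence of that strand was listed.

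Wholly beyond the borders of the small RNAs, at most 3 sequences were listed in a flank of 500 nt. No baseline for such flanks was computed. In the 500 nt upstream, on the same strand, Rnu11 and Snord118 had 1 sequence each and Rn7sk, Rpph1, Rmrp and Rny3 none. In the 500 nt downstream Rmrp and Snord118 had 3 each, Rpph1 1 and the others none. Sequences crossing the 5′ border numbered 13 at Rpph1, 5 at Rny3, 4 at Rn7sk (by up to 18 nt), 3 at Rmrp, 2 at Snord118 and 0 at Rnu11. At Rn7sk these 4 were the only listed sequences of its strand that reached into the first 218 nt. The 3′ border was crossed by 6 sequences at Rmrp and by 0 at the other small RNAs.

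The sequences of the mitochondrial rRNA began mostly with A. Of the 50 mt-Rnr2 sequences, 35 began with A (70.0%, 55.4–82.1%), 8 with U, 6 with G and 1 with C. By distinct ends, 27 of 39 began with A (69.2%, 52.4–83.0%). A makes up 38.2% of the transcript and 41% of positions 11 to 20 of these sequences. Over the 6 nuclear-encoded small RNAs 26.1% (22.5–29.9%) began with A. The other 113 listed mitochondrial sequences began with A in 54.9% of cases (45.2–64.2%) and with U in 23.0% (15.6–31.9%), and both intervals overlap those of mt-Rnr2.

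The 50 sequences were 30.7% (23.7–38.4%) of the 163 listed for the mitochondrial genome. They covered 525 of 1582 nt (33.2%; chromosome M, 1094–2675, plus strand), with 16 starting from nucleotide 784 to 813, where the fullest end also lay (nucleotide 809, chrM:1902-1928). A single sequence started at nucleotide 1 and another ended at the last nucleotide. mt-Rnr1, the rRNA of the small mitochondrial subunit, had 33 sequences, which was 34.6 per kb against 31.6 per kb for mt-Rnr2. Of 13 mitochondrial messenger RNAs, 5 had sense sequences, 38 in all, with mt-Nd6 at 14. Of 22 mitochondrial tRNAs 2 had any, mt-Tq with 2 and mt-Ti with 1. Sharing of their sequence with other genes or with the nuclear genome was not examined for these messenger RNAs and tRNAs. For genes with none, sequences left off the list cannot be told apart from sequences that were not there. This also limits the share of 30.7%.

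Other structural RNAs of the same kinds had fewer listed sequences. Of 28 annotated genes (33 were looked for), 16 had at least 1 sequence, 7 had 10 or more and 12 had none, with a median of 1 and 206 sequences in all. Sharing of sequence with other genes was not examined for these 28. Where none was listed, sequences left off the list cannot be told apart from sequences that were not there. The 7 were Rnu3a with 38, Vaultrc5 with 34, mt-Rnr1 with 33, Rny1 with 30, Rnu7 with 24, Terc with 14 and Snord13 with 10. Their numbers lay below the 50 of mt-Rnr2, the lowest member, and the members had been chosen by such numbers. Per kb of transcript the order was mixed: Rnu7 had 194 distinct ends per kb and Vaultrc5 154, above 5 of the 9 members, namely Snord118, Rpph1, Rn7sk, CT010467.1 and mt-Rnr2. Of the 206 sequences, 54.9% (47.8–61.8%) began with U, above the 35.3% (31.5–39.2%) of the 7 members outside the ribosomal locus and below the 75.4% of the list. Rnu7, the U7 RNA of histone messenger processing, had U in 19 of 24 and Rny1 in 11 of 30. Among the Y RNAs, Rny3 and Rny1 thus had 49.2% and 36.7%.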

How the data were processed

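Per the labels, MILI-bound RNA was immunoprecipitated from testis lysate, gel-eluted and built into Illumina small RNA libraries. Positions are on mm9, per the submitters' processing notes. Not given in the sources used here are the aligner, mismatches and read filters. The deposited table holds, per the file headers, each sequence with its chromosome, start, end and strand, with no counts or libraries.

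Sequences were matched exactly and in sense to the 9 genes' GENCODE M21 transcripts. Matches to other genes were sought in all M21 transcripts. Positions are from the longest transcript, or mm9 for the ribosomal locus, and no coordinate was converted. Ends are distinct combinations of chromosome, strand and position. Matching, tested on simulated data, found 500 of 500 planted sequences and 0 of 20000 random ones. The members and lists were chosen with earlier results of these data known. All 9 members are named, with the fullest 5′ end of each. Of the other structural RNAs only those with 10 or more sequences could be named. Alternatives counted 5′ ends, kept 24 to 31 nt, dropped sequences shared with other genes, used the longest transcript, left out the ribosomal locus or took its whole interval. The scripts ran under Python 3.11.15 with scipy 1.17.1, pandas 2.3.3, matplotlib 3.10.9 and numpy 2.4.6.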

Additional observations from a re-analysis of the deposited data

Results flagged for a closer look

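The plus strand of the ribosomal interval held 237 sequences that matched none of the 9 genes in sense and so entered none of the counts per gene. They lie to the left of the annotated start of Gm42418, nucleotide 493 of the interval, so the missing match is set by the annotation.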

How the results depend on the processing

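No paired analysis was possible because the list has no libraries. Counted by distinct 5′ ends, the members had 858 in place of 2146, with a 5′ U at 27.9%, 26 to 28 nt at 57.6% and the ribosomal locus at 67.5%. At 24 to 31 nt, 64.7% were 26 to 28 nt. Without the ribosomal locus 618 sequences were left, 35.3% with a 5′ U and 65.5% of 26 to 28 nt. These follow from what each alternative counts. Dropping sequences shared with other genes, using the longest transcript and taking all 1795 sequences of the interval moved none of these totals or shares beyond their interval, or by more than 1.5 times for a count. The 67 pairs at 10 nt were also 67 at 24 to 31 nt. Of 36 counts per gene, 26 stayed within 1.5 times. The other 10 were 8 of the 9 counts by 5′ ends, and CT010467.1 (225) and Rpph1 (32) without shared sequences. Depth is unknown and limits every value.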
